A study of Mus musculus with 6 samples.

Results

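The guanylate-binding proteins (GBPs) and immunity-related GTPases (IRGs) were followed in cultured mouse hepatocytes exposed to tumour necrosis factor alpha (TNFα), an inflammatory cytokine. The group was defined by name as 9 genes, Gbp2, Gbp3, Gbp6, Irgm1, Irgm2, Igtp, Iigp1, Tgtp1 and Ifi47, and every probe that the platform annotation assigned to them was taken. All 9 were on the array, with 17 probes, out of 19057 named genes. Primary hepatocytes of male C57Bl/6J mouse liver were profiled on 6 Illumina arrays with 1 colour each, in 3 groups of 2 arrays: untreated, 2 hours in 2 ng/mL recombinant murine TNFα, and 2 days in that concentration. Cells of all groups were kept on collagen with 5% fetal calf serum, 50 nM dexamethasone, a synthetic glucocorticoid, and 1 nM insulin. The labels do not say whether the 2 arrays of a group came from separate mice or cultures, and the p-values therefore rest on array-to-array spread that may be technical. They also give no time in culture for the untreated cells, so a 2 day exposure and time in culture cannot be told apart.

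Both families are large GTPases that mouse cells make in quantity after interferon gamma. They bind the membranes of vacuoles that hold bacteria or parasites and help to break them open. Among the IRGs, Irgm1, Irgm2 and Igtp (also called Irgm3) are regulators that sit on the cell's own membranes and hold the others inactive, while Iigp1 (Irga6), Tgtp1 (Irgb6) and Ifi47 (Irgd) are effectors that load onto the vacuole. Their genes are classical targets of the STAT and IRF families of transcription factors, and Irf1 is itself switched on by NF-κB, the transcription factor that TNFα activates.

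The promoters of the genes are shown because they hold the letters that these factors read. RefSeq windows on the build GRCm38.p6, running from 250 bases before an annotated transcript start to 50 bases from it on, were used here for 7 of the 9 genes. No window was available for Gbp6, and Iigp1 was left out, so the motif counts cover neither gene. The last 130 bases before the start and the 20 from the start on are printed below, 5′ to 3′ on the gene's strand. They lie at chr3:142620533-142620682 (plus strand) for Gbp2, chr3:142559914-142560063 (plus) for Gbp3, chr11:58199426-58199575 (plus) for Igtp, chr11:58214847-58214996 (plus) for Irgm2, chr11:48871401-48871550 (minus) for Irgm1, chr11:48992227-48992376 (minus) for Tgtp1 and chr11:49076457-49076606 (plus) for Ifi47. The Irf1 window, added for comparison, lies at chr11:53769884-53770033 (plus). Capitals mark matches to an IRF element (GAAA, any 2 bases, GAAA), a gamma-activated site or GAS that STAT dimers read (TTCNNNGAA), or a kappaB site that NF-κB reads, each searched on both strands.
Gbp2: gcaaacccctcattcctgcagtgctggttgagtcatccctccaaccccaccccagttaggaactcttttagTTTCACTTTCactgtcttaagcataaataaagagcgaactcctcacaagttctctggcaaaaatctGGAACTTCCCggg
Gbp3: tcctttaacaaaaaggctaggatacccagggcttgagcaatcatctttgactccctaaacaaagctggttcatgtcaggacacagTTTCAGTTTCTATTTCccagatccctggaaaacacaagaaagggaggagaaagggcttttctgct
Igtp: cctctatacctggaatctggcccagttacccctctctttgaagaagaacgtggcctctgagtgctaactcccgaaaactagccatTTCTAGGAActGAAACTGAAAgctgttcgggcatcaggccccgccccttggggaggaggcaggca
Irgm2: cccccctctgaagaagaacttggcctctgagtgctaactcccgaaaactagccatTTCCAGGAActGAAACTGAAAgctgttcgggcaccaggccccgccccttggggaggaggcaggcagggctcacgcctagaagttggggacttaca
Irgm1: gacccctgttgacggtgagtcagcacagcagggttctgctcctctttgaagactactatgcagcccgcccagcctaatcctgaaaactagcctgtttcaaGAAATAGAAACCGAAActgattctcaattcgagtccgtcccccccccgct
Tgtp1: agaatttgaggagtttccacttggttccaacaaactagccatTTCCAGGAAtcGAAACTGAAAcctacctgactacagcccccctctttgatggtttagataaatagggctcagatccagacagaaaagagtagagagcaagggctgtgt
Ifi47: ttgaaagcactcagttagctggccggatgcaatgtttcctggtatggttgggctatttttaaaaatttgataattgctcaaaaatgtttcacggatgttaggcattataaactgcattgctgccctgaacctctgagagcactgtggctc
Irf1: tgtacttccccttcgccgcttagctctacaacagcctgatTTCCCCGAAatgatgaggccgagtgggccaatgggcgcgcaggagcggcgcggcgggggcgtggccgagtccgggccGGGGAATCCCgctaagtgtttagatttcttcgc
An IRF element stood in 6 of the 7 windows, those of Gbp2, Gbp3, Igtp, Irgm2, Irgm1 and Tgtp1, against 3.44% of all 32851 promoter windows in the table. In Gbp3 and Irgm1 there were 2 overlapping matches. The annotated Ifi47 window held none of the 3 motifs, and neither did the window of a second annotated start of Gbp3. A GAS, present in 8.3% of all windows, stood in 3 of the 7, those of Igtp, Irgm2 and Tgtp1, and in each of these the IRF element began 11 bases after the GAS began. That arrangement, noticed in these windows, occurred in 5 windows of the whole table (0.0152%), those of Igtp, Irgm2, Tgtp1, Tgtp2 and Gm12185, all on chromosome 11. The windows of Igtp and Irgm2 are near copies, identical at 114 of 120 bases (95%) when lined up at the GAS without gaps, so they are not separate examples, while Tgtp1 was identical to Igtp at 45.8% of bases. A kappaB match, present in 8.46% of windows, stood among the 7 genes in Gbp2 alone, from 7 to 16 bases after the start base. The printed Irf1 window had a GAS and a kappaB match, while the window of a second annotated Irf1 start held none of the 3 motifs. A match is a description of the sequence and not a test of binding.

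**Figure D1:**
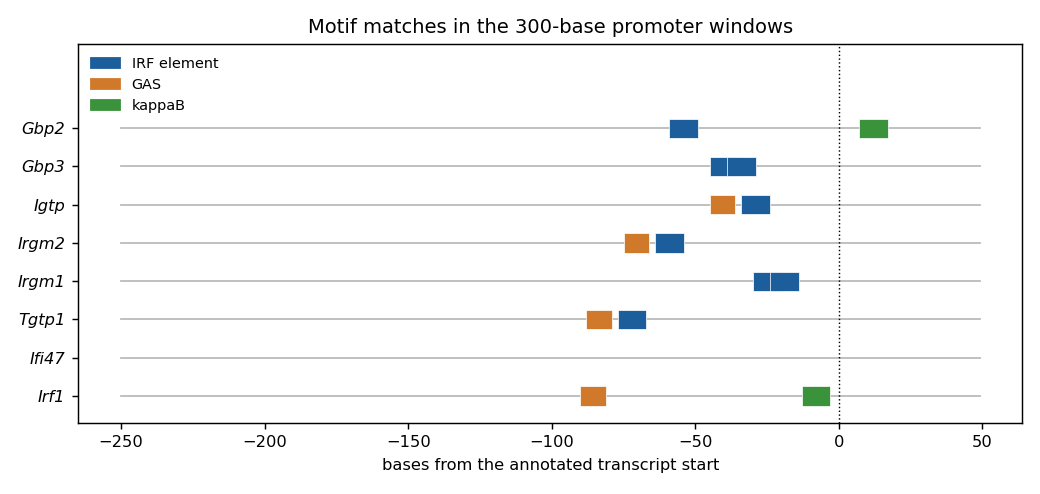
Positions of motif matches in the 300-base windows of 7 GTPase genes and of Irf1, with the distance from the annotated transcript start in bases on the x axis, an IRF element in blue, a GAS in orange and a kappaB site in green. The IRF elements of Gbp2, Gbp3, Igtp, Irgm2, Irgm1 and Tgtp1 all lie within 80 bases before the start, and Ifi47 shows no match.

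Values are array intensities on a linear scale from which background was not subtracted: the lowest value on any array was 96.5 and the array medians lay near 143. Arrays correlated at 0.995 to 0.996 within a group and at 0.982 to 0.991 between groups over the 13438 genes tested. Changes are log2 fold changes with their standard error (SE) from a limma fit over all those genes, and a gene was called at an adjusted p under 0.05. As a check of the label, the hepatocyte transcript Apoa1 read 41417 and 41715 in untreated cells, 42029 and 41074 at 2 hours, and 25181 and 21974 at 2 days, whereas the annotated Alb probe was dim on every array (145 to 174). Of the 17 probes of the GTPases, 13 passed the filter on low values and 8 of the 9 genes had at least 1 passing probe. The probe that stood for Gbp2, Gbp3, Igtp, Irgm1, Irgm2 and Ifi47 exceeded the array median on all 6 arrays, that of Iigp1 on 5 and that of Tgtp1 on 4. Gbp6 did not pass, and its only probe read 117 to 139, in the lowest 42.3% of probes on every array.

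**Figure D2:**
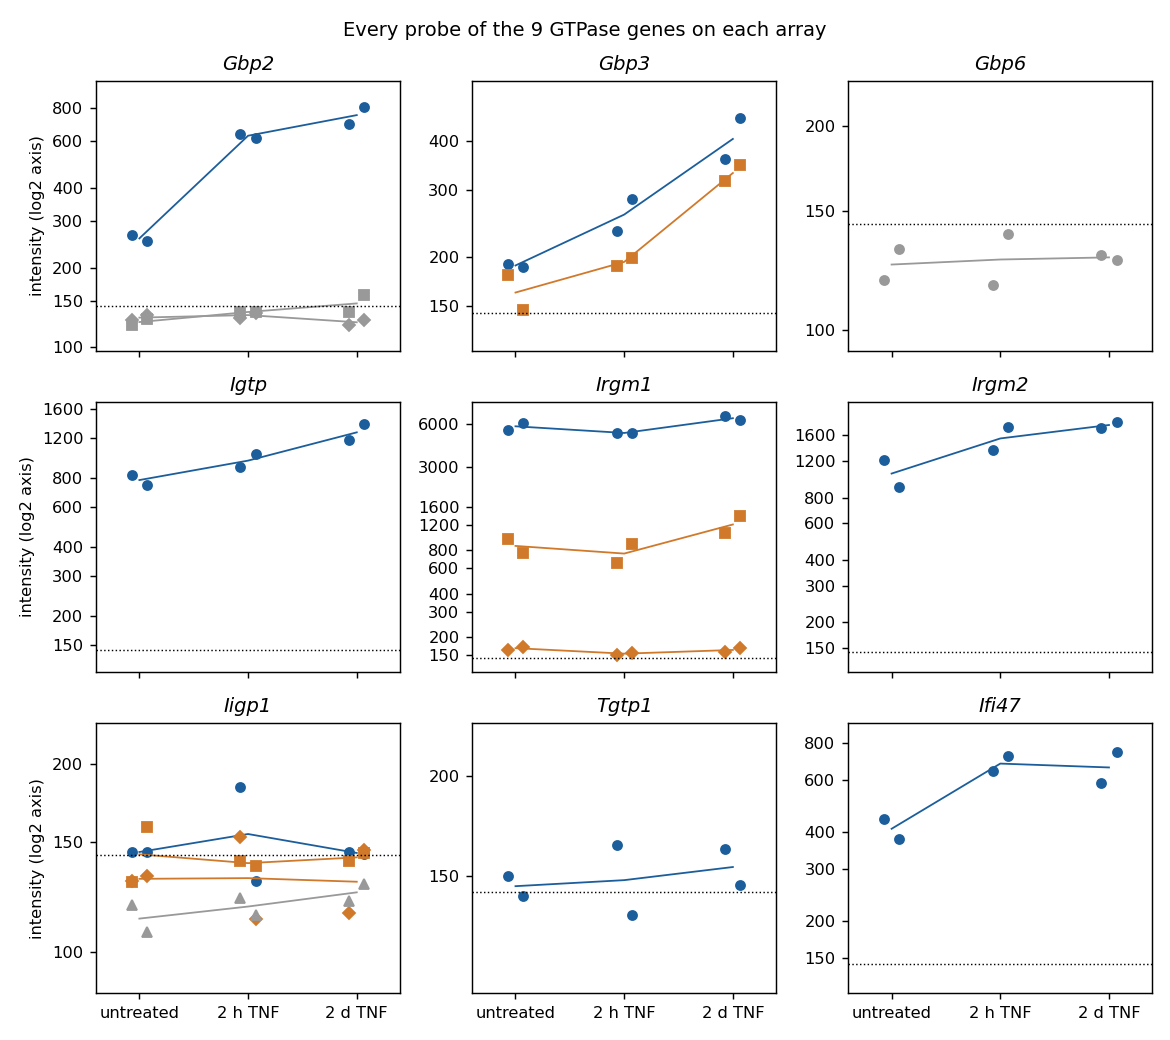
Intensity on a log2 axis of every probe of the 9 genes on each of the 6 arrays, for untreated, 2 hour and 2 day cells. Blue marks the probe that stands for the gene, orange another passing probe and grey a probe that did not pass; lines join group means and the dotted line is the array median of 143. Gbp2, Gbp3, Igtp, Irgm2 and Ifi47 are higher at 2 days than untreated, while Gbp6, Iigp1 and Tgtp1 stay near the dotted line.

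After 2 hours of TNFα, 4 of the 8 tested GTPase genes had risen, Gbp2, Ifi47, Irgm2 and Gbp3, and 0 had fallen. Of all 13438 genes 2.82% were called, 1.76% higher and 1.06% lower. The median log2 change of the 8 genes was 0.36, and that of all genes was -0.012. Arrays of the 2 groups did not overlap, with the TNFα arrays higher, for 5 of the 8 genes and for 18% of all genes, and with the TNFα arrays lower for 1 (Irgm1) and for 22.4% of all genes. After 2 days 5 of the 8 were higher, Gbp2, Gbp3, Irgm2, Igtp and Ifi47, and 0 were lower, where 12.7% of all genes were called, 6.74% higher and 5.92% lower. Here the median was 0.69 for the 8 genes and 0.0056 for all genes, and 6 of the 8 genes did not overlap, with the 2 day arrays higher, against 26.1% of all genes, and 1 (Iigp1) with them lower, against 23.5%. These 2 comparisons share the untreated arrays. In cultured cells measured in bulk, more responding cells and more RNA per cell cannot be told apart.

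Among the GBPs, Gbp2 gave the largest change. It read 264 and 251 in untreated cells, 641 and 617 at 2 hours, and 699 and 809 at 2 days. All 4 TNFα arrays lay above both untreated ones, and the 2 day arrays lay above the 2 hour ones. Gbp2 rose 2.44-fold at 2 hours (log2 1.29, SE 0.10, adjusted p = 1.84e-09 by limma), the 37th largest rise of the 13438 genes, and 2.92-fold at 2 days (log2 1.55, SE 0.10, adjusted p = 3.48e-11), the 19th largest. The step between the times was 0.26 (SE 0.10, adjusted p = 0.0992) and did not pass. Its 2 other probes were dim and did not pass the filter. One read 121 and 128 in untreated cells, 136 and 136 at 2 hours, and 136 and 157 at 2 days, with all 4 TNFα arrays above both untreated ones, and the other read 121 to 135 over the 6 arrays with its lowest mean at 2 days.

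Gbp3, in the same GBP cluster of chromosome 3 as Gbp2, was higher at each later time. Its brighter probe read 192 and 189 in untreated cells, 235 and 284 at 2 hours, and 359 and 459 at 2 days, with no overlap between any of the groups. The change at 2 hours was 0.44 on the log2 scale (SE 0.12, adjusted p = 0.038), and this call was lost without 2 hour replicate 2 (0.30, adjusted p = 0.529), without untreated replicate 1 (0.45, adjusted p = 0.134) and without untreated replicate 2 (0.43, adjusted p = 0.163). At 2 days it was 1.09 (SE 0.12, adjusted p = 1.5e-07), a 2.13-fold rise, and Gbp3 was also higher at 2 days than at 2 hours (0.65, SE 0.12, adjusted p = 0.000226). The second probe gave the same picture: it read 180 and 146 untreated, 190 and 199.8 at 2 hours, and 315 and 348 at 2 days. In a fit of every probe on its own its changes were 0.26 at 2 hours (adjusted p = 0.332) and 1.03 at 2 days (adjusted p = 2.59e-07). Whether Gbp2 and Gbp3 differ in their course was not tested.

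Of the 3 regulatory IRGs, Irgm2 and Igtp were higher than in untreated cells at 2 days, and the brightest Irgm1 probe was called only between the 2 times. Irgm2 read 1214 and 901 in untreated cells, 1367 and 1751 at 2 hours, and 1741 and 1856 at 2 days. Both TNFα groups lay above the untreated arrays, but the untreated pair and the 2 hour pair were spread widely. The change was 0.56 at 2 hours (SE 0.13, adjusted p = 0.01) and 0.78 at 2 days (SE 0.13, adjusted p = 7.27e-05). The 2 hour call was lost without untreated replicate 2 (0.35, adjusted p = 0.28) and without 2 hour replicate 2 (0.39, adjusted p = 0.383). The times did not differ past the threshold (0.22, SE 0.13, adjusted p = 0.309).

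Igtp, next to Irgm2 on chromosome 11, read 828 and 745 in untreated cells, 897 and 1018 at 2 hours, and 1171 and 1375 at 2 days. The groups did not overlap and the highest arrays were those of 2 days. At 2 hours the difference of 0.28 did not pass (SE 0.11, adjusted p = 0.242), and at 2 days Igtp was 1.61-fold higher (log2 0.69, SE 0.11, adjusted p = 4.68e-05). It was higher at 2 days than at 2 hours by 0.41 (SE 0.11, adjusted p = 0.00972), a call lost without 2 hour replicate 1 (0.32, adjusted p = 0.163) or 2 day replicate 2 (0.29, adjusted p = 0.184).

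Irgm1, the IRG whose loss in mice impairs control of mycobacteria, had 3 passing probes. The brightest read 5470 and 6090 in untreated cells, 5187 and 5191 at 2 hours, and 6792 and 6349 at 2 days. The 2 hour arrays were the lowest and the 2 day arrays the highest. Neither comparison with untreated cells passed (-0.15, SE 0.10, adjusted p = 0.636 at 2 hours, and 0.19, SE 0.10, adjusted p = 0.291 at 2 days), with 95% intervals from -0.36 to 0.06 and from -0.02 to 0.40. Irgm1 was higher at 2 days than at 2 hours (0.34, SE 0.10, adjusted p = 0.0216), a call lost without 2 hour replicate 1 (0.34, adjusted p = 0.107), 2 hour replicate 2 (0.34, adjusted p = 0.111) or 2 day replicate 1 (0.29, adjusted p = 0.161). The probes disagreed in size. The second read 955 and 766 untreated, 646 and 886 at 2 hours, and 1044 and 1389 at 2 days, and fitted on its own it was higher at 2 days than untreated (0.49, SE 0.14, adjusted p = 0.0233) and than at 2 hours (0.67, SE 0.14, adjusted p = 0.00166). The dimmest read 150 to 171 over all 6 arrays and was not called in any comparison, with changes of -0.13 at 2 hours and -0.04 at 2 days.

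Of the 3 effector IRGs, Ifi47 rose and the other two were not detectable above the general level of dim probes. Ifi47 read 443 and 381 in untreated cells, 642 and 725 at 2 hours, and 587 and 747 at 2 days. Every TNFα array was above both untreated arrays, and the 2 TNFα groups overlapped. It rose 1.66-fold at 2 hours (log2 0.73, SE 0.12, adjusted p = 0.000199) and 1.61-fold at 2 days (log2 0.69, SE 0.12, adjusted p = 0.000127), with a difference between the times of -0.04 (95% interval -0.29 to 0.20).

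Tgtp1 read 150 and 142 in untreated cells, 164 and 134 at 2 hours, and 162 and 146 at 2 days, with all groups overlapping. Its changes were 0.03 and 0.08 (adjusted p = 0.964 and 0.764), with 95% intervals from -0.20 to 0.25 and from -0.15 to 0.31. Tgtp2 is a near-identical copy on the same chromosome, so a signal of this probe could not be split between the 2 genes. Iigp1 had 4 probes, which read 108 to 184 over the 6 arrays. The probe that stood for it read 145 and 145 untreated, 184 and 130 at 2 hours, and 145 and 144 at 2 days, so that the 2 arrays of the 2 hour group were the extremes. None of the 3 probes of Iigp1 that passed was called in any comparison, and those of the representing probe were 0.10 at 2 hours and -0.01 at 2 days (adjusted p = 0.858 and 0.991). At intensities this close to the background a rise would be compressed, and its absence cannot be told from a low signal.

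**Figure D3:**
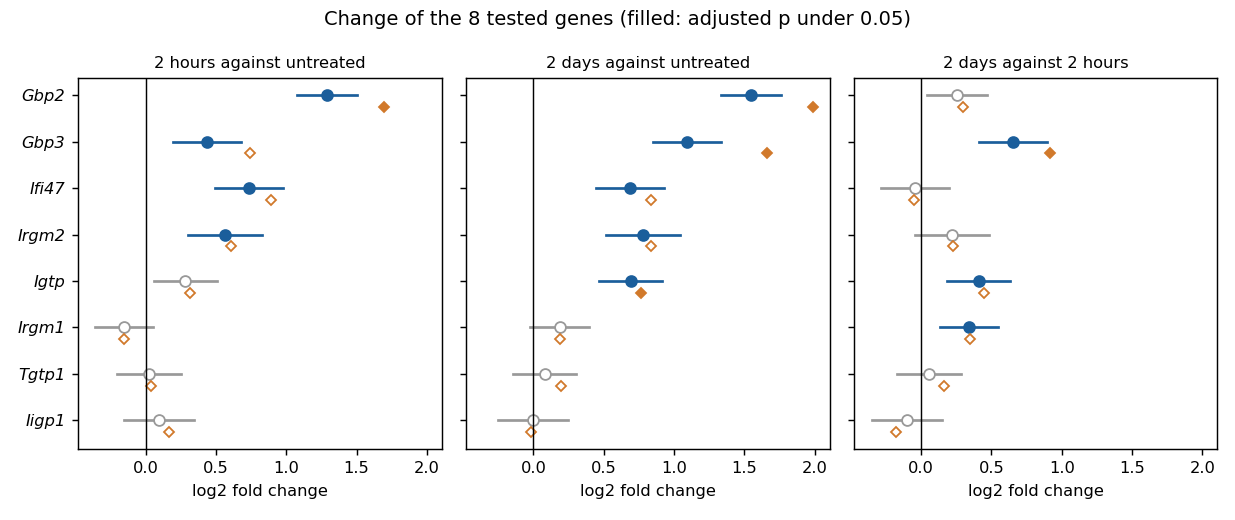
Log2 fold changes of the 8 tested genes in 3 comparisons, with circles for the limma estimate and lines for its 95% interval (blue and filled where adjusted p was under 0.05), and diamonds for the estimate after normexp background correction (filled where its adjusted p was under 0.05). The diamonds of Gbp2 and Gbp3 lie to the right of the circles at both times, and those of Irgm1 coincide with them.

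Background was still in the deposited values, which makes folds of dim genes smaller. After correction with normexp the 2 day folds were 3.97 for Gbp2 (adjusted p = 0.000823), 3.16 for Gbp3 (adjusted p = 0.00614), 1.70 for Igtp (adjusted p = 0.0415), 1.79 for Irgm2 (adjusted p = 0.0677) and 1.79 for Ifi47 (adjusted p = 0.053), so Irgm2 and Ifi47 lost their calls. At 2 hours Gbp2 was 3.23-fold higher (adjusted p = 0.00297) and was the only one of the 4 called genes to keep its call. Between the times Gbp3 kept its call (1.89-fold, adjusted p = 0.0477).

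Between the 2 times some GTPases rose while Irf1 and most NF-κB genes fell. At 2 days against 2 hours 3 of the 8 tested GTPase genes were higher, Gbp3, Igtp and Irgm1, and 0 lower, where 15.3% of all genes were called, 8.63% higher and 6.67% lower. Arrays did not overlap, with the 2 day arrays higher, for 4 of the 8 genes and 29.4% of all genes, and with them lower for 0 of the 8 and 23.4% of all genes. Irf1 read 1147 and 1073 in untreated cells, 6984 and 8318 at 2 hours, and 1681 and 2061 at 2 days. It rose 6.87-fold at 2 hours (log2 2.78, SE 0.11, adjusted p = 1.99e-15), was still 1.68-fold higher at 2 days (adjusted p = 2.93e-05), and fell by 2.03 on the log2 scale between the times (adjusted p = 1.24e-12). Of 10 tested NF-κB subunits and inhibitors, 8 were higher at 2 hours, led by Tnfaip3 (2.77), Nfkbia (2.43), Nfkbie (1.98) and Relb (1.84), and 6 at 2 days, led by Nfkbia (1.32), Tnfaip3 (0.85), Relb (0.74) and Nfkbie (0.68). Of all genes, 1.76% were called higher at 2 hours and 6.74% at 2 days. Between the times 0 of the 10 were higher and 9 lower. The list's median log2 change was 1.27 at 2 hours, 0.49 at 2 days and -0.86 between the times. Between the times the medians were 0.24 for the 8 genes and 0.014 for all genes.

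**Figure D4:**
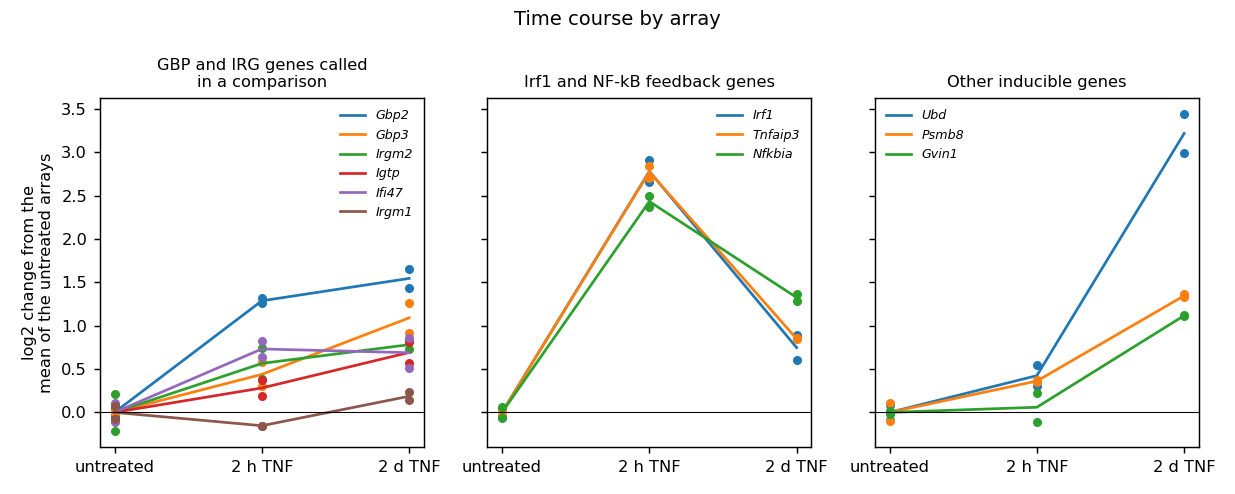
Log2 change from the mean of the untreated arrays for each array (points) and group mean (lines), in untreated, 2 hour and 2 day cells. Irf1, Tnfaip3 and Nfkbia peak at 2 hours, Ubd, Psmb8 and Gvin1 are highest at 2 days, and Gbp2, Gbp3, Irgm2 and Igtp have their highest group mean at 2 days.

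The probes of interferon genes were dim. The 14 probes of 9 interferon genes read 110 to 183 on all arrays, and the brighter Ifng probe read 133 and 146 in untreated cells, 129 and 144 at 2 hours, and 129 and 117 at 2 days. Of the 4 interferon genes tested, 0 were called by limma in any comparison and 0 had an unadjusted p under 0.05. The 2 day arrays lay above the untreated ones without overlap for 2 of the 4 (Ifne and Ifnk), against 26.1% of all genes. They lay below for 1 (Ifng), against 23.5%. The median change of the 4 at 2 days was 0.12, and that of all genes was 0.0056. Markers of T and natural killer cells, the usual makers of interferon gamma, had 6 of 14 genes on the array tested, with 0 called by limma in any comparison while 1 reached an unadjusted p under 0.05 at 2 hours. Their summed intensity was 912 to 964 in untreated cells, 933 to 1040 at 2 hours and 936 to 961 at 2 days.

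Interferon receptors, JAK-STAT components and IRF factors changed in part. Of 24 tested, 5 were higher at 2 hours and 0 lower: Irf1, Irf5 (1.32), the interferon gamma receptor chains Ifngr1 (0.58) and Ifngr2 (0.49), and the interferon lambda receptor Ifnlr1 (0.58). Of all genes, 1.76% were called higher at 2 hours and 1.06% lower. At 2 days 7 of the 24 were higher and 1 lower, with Irf7 (0.84), Irf1 (0.75), Nlrc5 (0.61), the activator of MHC class I genes, and Irf5 (0.55) leading, and Stat3 lower (-0.35). Of all genes, 6.74% were called higher at 2 days and 5.92% lower. Between the times 3 of the 24 were higher and 5 lower, where 8.63% of all genes were called higher and 6.67% lower. Higher were Nlrc5 and Irf7 (0.65 and 0.62, adjusted p = 5.14e-05 and 0.000247 by limma) and Irf9. Lower were Irf1, Irf5, Ifnlr1, Ifnar2 and Stat3. The median change between the times was 0.0097 for the list and 0.014 for all genes. The list's median change was 0.097 at 2 hours and 0.12 at 2 days, against -0.012 and 0.0056 for all genes.

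Other interferon-inducible genes were called at both times. Of 28 tested, 6 were higher at 2 hours, led by the chemokines Cxcl10 (1.52) and Cxcl9 (0.66), Parp14 (0.87) and the immunoproteasome subunit Psmb10 (0.73), and 0 were lower, where 1.76% of all genes were called higher. At 2 days 16 were higher and 0 lower, where 6.74% of all genes were called higher, led by the ubiquitin-like modifier Ubd (3.22), Oasl2 (1.46), Psmb10 (1.39) and the immunoproteasome subunit Psmb8 (1.35). Cxcl10 differed from untreated cells by 0.17 at 2 days (adjusted p = 0.414) and fell by 1.35 on the log2 scale between the times. At 2 days against 2 hours 14 of the 28 were higher and 2 lower, where 8.63% of all genes were called higher and 6.67% lower. The median change was 0.15 at 2 hours and 0.41 at 2 days, or 0.31 between the times.

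Some relatives in the same families were called. Of 21 further GBP, IRG and related GTPase genes 18 were on the array and 10 passed, of which 2 were higher at each time and 0 lower, where 1.76% of all genes were called higher at 2 hours and 6.74% at 2 days. Gvin1, a very large inducible GTPase, read 412 and 403 in untreated cells, 378 and 476 at 2 hours, and 886 and 880 at 2 days, a rise of 1.12 at 2 days (SE 0.11, adjusted p = 2.8e-08) with 0.06 at 2 hours (adjusted p = 0.908). Irgq, an IRG-like gene, was highest at 2 hours, at 621 and 594 untreated, 958 and 887 at 2 hours, and 674 and 690 at 2 days, with a change of 0.60 at 2 hours (adjusted p = 0.000312) and 0.17 at 2 days (adjusted p = 0.354). The 2 other Gvin1 probes read 121 to 152 with overlapping groups at 2 days and untreated, while 2 of the 3 other Irgq probes were also highest at 2 hours. Mx2, a dynamin-like antiviral GTPase, rose by 0.39 at 2 hours (adjusted p = 0.0357) and by 0.34 at 2 days (adjusted p = 0.0257). The median change of the 10 was 0.015 at 2 hours and 0.025 at 2 days. In the chromosome 3 cluster, whose order in GRCm38.p6 is Gbp5, Gbp7, Gbp3, Gbp2b and Gbp2, Gbp7 changed by 0.21 at 2 days without a call (adjusted p = 0.227), and Gbp5 and Gbp2b did not pass the filter. On chromosome 5 Gbp9 (0.01) and Gbp10 (-0.01) were not called at 2 days, and Gbp4, Gbp6, Gbp8 and Gbp11 did not pass.

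Of the machinery that places GBPs and IRGs on vacuoles, 3 genes were called higher and 1 lower at 2 days, and 0 at 2 hours. The 15 tested genes were those of the ubiquitin-like conjugation system together with Trim21, Traf6 and Sqstm1. At 2 hours limma called 0 of the 15, and 5 had an unadjusted p under 0.05. At 2 days the ubiquitin ligases Trim21 (0.43, also counted among the interferon-inducible genes) and Traf6 (0.33) and the adaptor Sqstm1 (0.34) were higher, and Atg3 (-0.40), an enzyme that conjugates LC3 and GABARAP proteins, was lower. These are 4 of the 15, where 12.7% of all genes were called, 6.74% higher and 5.92% lower. Of the 15, 8 had an unadjusted p under 0.05. Arrays did not overlap, with the 2 day arrays lower, for 8 of the 15 and for 23.5% of all genes. With the 2 day arrays higher, this held for 3 of the 15 and for 26.1% of all genes. The median was 0.024 at 2 hours and -0.149 at 2 days. Between the times 0 of the 15 were higher and 3 lower (Atg3, Atg10 and Atg12). Of all genes, 8.63% were called higher between the times and 6.67% lower. Of 15 constitutive membrane GTPases limma called 0 at 2 hours, where 1 had an unadjusted p under 0.05. At 2 days 0 of them were higher and 2 lower, Rab7 (-0.56) and Atl3 (-0.36), where 5.92% of all genes were called lower. The median of these membrane GTPases was 0.0089 at 2 hours and -0.049 at 2 days.

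The genes whose pattern over the 6 arrays was most like the mean of the 8 standardised GTPase profiles were Ptchd1 (Pearson r = 0.997), Ubl5 (0.991), Dtx3l (0.987), Lamb3 (0.987) and Fpr2 (0.984), among 2540 genes that were called in at least 1 comparison. The 6 points are 3 pairs of arrays, and the values describe likeness only. Dtx3l, an ubiquitin ligase, read 672 and 623 in untreated cells, 937 and 905 at 2 hours, and 1139 and 1232 at 2 days, and was called at 2 hours (0.51), at 2 days (0.87) and between the times (0.36). Ptchd1 read 118 and 113 in untreated cells, 135 and 126 at 2 hours, and 146 and 146 at 2 days. Ptchd1 therefore passed the filter on low values through the 2 day arrays alone and had to be highest there, and its place in this order says nothing more. Fpr2 read 135 and 132 in untreated cells, 171 and 156 at 2 hours, and 203 and 191 at 2 days. It passed the filter through TNFα arrays alone, so its likeness to a rising profile was also partly set by the filter. Of the GTPases themselves, Gbp2 (0.938), Igtp (0.904) and Gbp3 (0.901) followed the mean profile most closely, and Irgm1 (0.405) and Iigp1 (0.183) least, with each gene being part of that mean.

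Some markers of macrophages and single markers of stellate and bile duct cells moved with the 2 day group. Of 10 tested macrophage markers, 4 were higher at 2 days (C1qa, C1qb, C1qc and Cd163) and 0 lower. Of all genes, 6.74% were called higher at 2 days and 5.92% lower. The 2 day arrays lay above the untreated ones without overlap for 5 of the 10 markers, against 26.1% of all genes. They lay below for 1, against 23.5%. That was Lyz2, whose brightest probe read 182 and 178 untreated and 173 and 164 at 2 days. The summed intensity of the 10 markers was 1904 to 2083 at 2 days against 1672 to 1731 in untreated cells. None of the markers was at 0, as background was kept: Adgre1 read 130 to 161 on its brightest probe, Clec4f 113 to 140, and C1qb changed by 0.75. At 2 hours limma called 0 of the 10, where 2 had an unadjusted p under 0.05, and the sum was 1666 to 1674. Stellate cell markers had 2 of 8 higher (Acta2 and Timp1) and 1 lower (Reln) at 2 days. At 2 hours 1 of the 8 was higher, Reln, where 1.76% of all genes were called higher. Reln read 387 and 372 untreated, 511 and 511 at 2 hours, and 225 and 206 at 2 days. The stellate sums were 3858 to 4493 at 2 days against 2952 to 3378 untreated. Acta2 alone made up 2107 and 2906 of these at 2 days and 1343 and 1812 untreated. Bile duct markers had 1 of 4 higher at both times (Sox9), with sums of 3349 to 3590 at 2 days against 1353 to 1370 untreated. Sox9 made up most of that sum, at 2796 and 3027 at 2 days and 852 and 842 untreated, and Krt7, Krt19 and Muc1 (140.4 to 242 in these groups) were not called. Endothelial markers had 1 of 11 higher and 1 lower at 2 days, with sums of 2244 to 2245 against 2137 to 2300 in untreated cells. Of 3 tested B cell and neutrophil markers limma called 0 in any comparison and 0 had an unadjusted p under 0.05, with sums of 465 to 475 at 2 days against 428 to 446 in untreated cells. Of 13 tested hepatocyte markers 7 were lower at 2 days and 0 higher, where 5.92% of all genes were called lower. The sums of the hepatocyte markers were 93156 to 96644 at 2 days against 146402 to 154349 in untreated cells. The part of any of these in the changes of the GTPases was not tested.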

How the data were processed

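RNA was measured on 6 Illumina arrays. The deposited values are linear intensities, 1 for each probe on an array; biotin-labelled cRNA was made with an Ambion kit per the labels' protocols, and the software that scanned and normalized the arrays was not given in the sources used here. All 6 columns of deposited intensity share nearly 1 distribution, from 96.5 to 47615, as after quantile normalization, and no background had been subtracted. Of 45281 probes, the platform annotation gave 34885 a single gene and 18 more than 1, and it lacked 10378; entrez identifiers led to RefSeq names (GRCm38.p6) for 34807. Arrays took their group from the titles.

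Intensities were taken to log2. The filter kept the 26272 probes above the 50th percentile of an array on 2 or more arrays, and the probe with the highest mean stood for a gene, giving 13438 genes. limma 3.58.1 (R 4.3.3) estimated 3 group means from the 6 arrays together (residual degrees of freedom 3, prior 21.2), with Benjamini-Hochberg adjustment over all genes, called under 0.05. The shared prior therefore sets most of each gene's spread, and the number of arrays limits the precision. The fit was also run on simulated arrays with independent normal noise drawn from its own fitted variances. Such arrays meet the assumptions of the fit, so they cannot show whether 2 arrays per group capture the spread between cultures. The genes, lists and tests were chosen with earlier results of these data known. Named were all 9 genes with every probe, up to 4 called genes per list and comparison with the largest change, the 5 most alike genes, clone names passed over, and Irf1, Tnfaip3, Alb and Apoa1; probes of relatives and further markers were added after their values were seen. Alternatives were median centring, cyclic loess, normexp with an offset of 16, an offset of 16, no filter, the 70th percentile, averaging probes per gene, fitting probes singly, a variance both trended and robust, only the compared groups, a replicate block, and leaving out each array.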

Additional observations from a re-analysis of the deposited data

How the results depend on the processing

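The 24 log2 changes of the tested GTPase genes, recomputed under the alternatives, gave 402 values, counting the probe that stands for each gene. Of these, 380 kept their side of the threshold, 22 lost a call and 0 gained one. Direction was compared only where a call stood in either fit, and there 0 reversed. Uncalled changes could switch sign. That of Iigp1 at 2 hours, 0.10, ran from -0.15 to 0.34 when single arrays were left out. With every probe fitted on its own 6 GTPase genes were called at 2 days, against 5, through the second Irgm1 probe. The 5 calls at 2 days held without any single array. Under normexp the GTPase genes called were 1 at 2 hours, 3 at 2 days and 1 between the times, against 4, 5 and 3, and those of all genes were 95 (81 higher, 14 lower), 654 and 810, against 379 (237 higher, 142 lower), 1701 and 2056; the cause was not tested. Under normexp the other family genes gave 0, 1 and 1 calls, the receptor, JAK-STAT and IRF list 3, 4 and 5, the other interferon-inducible genes 2, 10 and 9, and the conjugation and membrane GTPase lists 0 each at 2 days and between the times. With probes averaged per gene 2 GTPase genes and 250 genes in all were called at 2 hours, the conjugation list gave 1 call at 2 days, and the membrane GTPases 1 at 2 days and 1 between the times. With cyclic loess the conjugation list gave 1 call at 2 hours, as it did with an offset of 16, and the membrane GTPases 4 at 2 days; with every probe on its own the receptor list gave 8 at 2 hours.

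Leaving out each array gave 2 to 4 GTPase genes at 2 hours (2 without untreated replicate 2 or 2 hour replicate 2) and 1 to 3 between the times (1 without 2 hour replicate 1), 187 to 384 genes in all at 2 hours and 1270 to 2155 between the times. At 2 hours the other family genes gave 1 to 2 and the receptor list 3 to 6. At 2 days these gave 1 to 2 and 5 to 8, the conjugation list 1 to 3 and the membrane GTPases 1 to 2. Between the times the ligands gave 0 to 1, the receptor list 5 to 9, the conjugation list 0 to 3 and the membrane GTPases 1 to 3. Same-numbered arrays did not deviate together (correlations of -0.15, -0.08 and 0.04), so the numbers were not taken to pair the arrays. With the replicate number as a block, 4, 5 and 3 GTPase genes were called and 363, 1638 and 2007 genes in all, and no call of a GTPase gene changed. Signal over background limits what can be said of Gbp6, Tgtp1 and Iigp1.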
